A study of Mus musculus with 6 samples.

Results

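The genes described here form the actin cytoskeleton together with the targets of its 2 main transcriptional readouts, the factor SRF and the coactivators YAP and TAZ. They are 44 of the 28802 genes in the deposited table, chosen as the rows whose gene name equals one of 44 listed symbols, and each symbol was found once. Messenger RNA was sequenced in 3 libraries of the metformin scaffold group and 3 control libraries. Both groups are mouse and labelled as cranial bone, from a model with a skull defect of 5 mm diameter. The scaffold group is labelled 500 µM metformin in a composite of α-CSH (a calcium sulfate hemihydrate filler) and nHA (hydroxyapatite mineral particles), written Met/α-CSH/nHA, and the control group is labelled 0 µM. Metformin is a biguanide drug used against type 2 diabetes. Strain, sex, age, time after surgery and whether the control received the composite without drug are not given in the sources used here. It is also not stated whether the RNA is from tissue or from cells in culture, or whether the 3 libraries of a group came from separate animals. The p-values therefore measure the spread between these libraries, which may be technical.

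Libraries held between 63174927 and 70955139 estimated counts. About 4 counts to a read pair is assumed here, because low values pile up at multiples of 4, and was not measured. Mitochondrial transcripts took 6.96% to 8.58% of the counts in the scaffold group and 6.4% to 7.16% in the control group. The osteoblast markers were all above 1 FPKM (fragments mapped per kilobase of transcript, scaled to library size) on average, 10 of 10. Of these 6 rose while the other 4 did not pass. Of all genes tested, 2.85% were called higher, a share not matched for expression level. The summed level of the osteoblast markers was 8700 to 8870 FPKM in scaffold libraries and 7220 to 8240 FPKM in control libraries. Of 10 smooth muscle and pericyte markers 1 rose, Cspg4 (9.82 ± 0.279 FPKM in scaffold and 7.55 ± 0.655 FPKM in control libraries), and 3 reached a mean of 1 FPKM (summed level 18.5 to 20.8 FPKM in scaffold and 17.5 to 18.8 FPKM in control libraries). Mcam lay the other way, at 0.407 ± 0.0851 FPKM in scaffold and 0.737 ± 0.119 FPKM in control libraries (edgeR adjusted p = 0.0666). Its groups did not overlap, but it did not pass. Notch3 and Rgs5 were higher without overlap and did not pass either. Mcam, Notch3 and Rgs5 were named after their values were seen. Myocd, Kcnj8 and Abcc9 stood at 0 in every control library and at no more than 0.0201 FPKM in any scaffold library. Of 9 measured skeletal muscle markers only Actn3 reached a mean of 1 FPKM over all libraries, and it made up most of the summed level of 17.3 to 18.5 and 16.4 to 17.7 FPKM. None of 9 endothelial markers (0.667 to 0.889 and 0.811 to 1.01 FPKM) or of 8 measured leukocyte markers (0.429 to 1.09 and 0.759 to 1.9 FPKM) reached 1 FPKM. The skeletal muscle marker Myh1 and the endothelial marker Kdr also stood at 0 in every control library. The leukocyte marker S100a9 stood at 0 in every scaffold library. The part that these shifts have in the results was not tested. In RNA from bulk samples, fewer cells of a type and less RNA per cell cannot be told apart.

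Actin filaments are built from actin subunits and carry tropomyosins along their length, while filamins and α-actinins cross-link them and non-muscle myosin pulls on them. When filaments form, the pool of free actin falls and releases the MRTF cofactors, which enter the nucleus and bind SRF at a DNA element called the CArG box. YAP and TAZ are held out of the nucleus when the LATS kinases phosphorylate them. On spread cells under tension they enter it and act through the TEAD factors, which bind DNA. Several genes answer to both routes, Ccn1 and Ccn2 among them, and both routes are studied in bone-forming cells because they respond to the stiffness of the substrate.

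The promoters of the 6 genes that passed the test are shown first, and then 2 of genes with a CArG box that did not pass. Each is the 250 bases before a RefSeq transcription start on GRCm38.p6, written 5′ to 3′ on the strand of the gene, and capitals mark matches to the TEAD motif CATTCC (or GGAATG, the same motif on the other strand) or to the CArG box. The first 3 belong to genes that were lower in the scaffold libraries:
Ccn1, chr3:145649986-145650235, minus strand: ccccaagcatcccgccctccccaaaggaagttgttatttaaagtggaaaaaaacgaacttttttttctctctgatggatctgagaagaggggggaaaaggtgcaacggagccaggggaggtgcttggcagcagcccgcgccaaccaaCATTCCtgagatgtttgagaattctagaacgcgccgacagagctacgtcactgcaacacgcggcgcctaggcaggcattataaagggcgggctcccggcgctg
Amotl2, chr9:102717554-102717803, plus strand: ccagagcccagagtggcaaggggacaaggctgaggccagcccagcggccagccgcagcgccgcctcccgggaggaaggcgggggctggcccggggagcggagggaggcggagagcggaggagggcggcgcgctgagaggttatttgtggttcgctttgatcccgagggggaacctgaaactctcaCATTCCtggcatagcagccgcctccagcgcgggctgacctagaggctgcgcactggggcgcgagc
Tpm1, chr9:67049214-67049463, minus strand: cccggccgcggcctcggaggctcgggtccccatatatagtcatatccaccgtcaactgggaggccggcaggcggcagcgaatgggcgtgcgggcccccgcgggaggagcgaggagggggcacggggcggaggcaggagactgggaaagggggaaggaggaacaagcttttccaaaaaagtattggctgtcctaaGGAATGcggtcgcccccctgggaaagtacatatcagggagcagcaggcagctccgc
The next 3 belong to genes that were higher in the scaffold libraries:
Tagln2, chr1:172499996-172500245, plus strand: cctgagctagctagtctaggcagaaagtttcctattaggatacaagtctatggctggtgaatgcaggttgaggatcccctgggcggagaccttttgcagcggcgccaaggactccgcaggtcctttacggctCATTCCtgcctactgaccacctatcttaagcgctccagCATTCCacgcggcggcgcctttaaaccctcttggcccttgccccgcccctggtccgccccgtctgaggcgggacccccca
Tead2, chr7:45215542-45215791, plus strand: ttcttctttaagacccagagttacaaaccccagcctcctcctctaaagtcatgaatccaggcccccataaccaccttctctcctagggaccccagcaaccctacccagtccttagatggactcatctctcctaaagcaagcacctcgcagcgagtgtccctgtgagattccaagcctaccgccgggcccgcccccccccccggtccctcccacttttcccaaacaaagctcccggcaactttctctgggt
Tpm4, chr8:72135038-72135287, plus strand: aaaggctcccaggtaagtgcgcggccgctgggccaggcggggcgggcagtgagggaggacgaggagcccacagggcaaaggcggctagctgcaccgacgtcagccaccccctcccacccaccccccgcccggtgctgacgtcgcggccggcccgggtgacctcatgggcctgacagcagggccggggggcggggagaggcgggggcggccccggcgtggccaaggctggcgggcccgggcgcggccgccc
The last 2 are from Srf itself and the cytoplasmic actin gene Actg1, neither of which passed:
Srf, chr17:46556163-46556412, minus strand: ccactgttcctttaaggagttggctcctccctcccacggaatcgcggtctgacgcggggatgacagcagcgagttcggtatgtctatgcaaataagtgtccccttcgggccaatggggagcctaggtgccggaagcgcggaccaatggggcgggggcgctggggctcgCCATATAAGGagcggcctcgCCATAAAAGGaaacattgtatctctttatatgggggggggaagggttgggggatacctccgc
Actg1, chr11:120348496-120348745, minus strand: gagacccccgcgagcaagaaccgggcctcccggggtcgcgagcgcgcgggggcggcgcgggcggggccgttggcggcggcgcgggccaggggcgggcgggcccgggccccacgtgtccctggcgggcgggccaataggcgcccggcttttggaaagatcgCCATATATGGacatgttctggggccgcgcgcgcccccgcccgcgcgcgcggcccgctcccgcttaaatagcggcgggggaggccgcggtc

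RefSeq windows of 300 bases (250 before and 50 after the start) were found for 36 of the 44 genes. The TEAD motif was present in 16 of the 36 (44.4%), against 16.6% of 27025 gene symbols with such a window. All 5 YAP and TAZ targets with a window held it, namely Ccn1, Ankrd1, Amotl2, Ajuba and Lats2, as did 2 of 7 in the SRF group and 5 of 12 structural actin genes. The CArG box was taken as exactly CC, then 6 letters of A or T, then GG. Searched on both strands, it was present in 6 of the 36 (16.7%), against 1.81% of all symbols. These were Srf with 2 copies, Actg1, Cnn2, Myl6, Myl9 and Vcl. Near matches with a single letter off did not count, such as ccctatatgg in the window of Acta2 or ccatatatag in that of Tpm1. How many windows hold a near match was not counted. No match of one motif overlapped a match of the other. Of the 6 genes that passed the test, 4 held the TEAD motif and 0 the CArG box, against 12 and 6 of the 30 that did not pass. A match is a stretch of letters and not a site shown to be bound, and no match says only that the letters are not in this window.

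With the metformin scaffold, 3 of the 44 genes rose (Tead2, Tpm4 and Tagln2), 3 fell (Ccn1, Amotl2 and Tpm1), and the other 38 did not pass. The 6 called genes are 13.6% of the 44. Of all 17375 genes tested, 4.31% were called, 2.85% higher and 1.46% lower. The 44 genes are expressed above most genes, with a median of 23.6 FPKM against 3.2 FPKM for all genes tested. Among genes with a mean of at least 5 FPKM, 5 of 37 members were called (13.5%), against a background of 8.19%. The calls use edgeR's quasi-likelihood test with Benjamini-Hochberg adjustment over all genes tested and a threshold of 0.05. Changes were small: apart from Cnn1, the log2 fold changes (scaffold over control) lay between -0.35 and 0.42. For 32 of the 44 genes the 95% interval lay within 0.3 of 0 on the log2 scale. The median over the 44 was -0.01, and that over all genes tested was -0.005. The normalised counts of the 2 groups did not overlap for 19 of the 44 genes (43.2%), against a background of 24%. That background covers all genes tested and was not matched for expression level.

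The number of calls depended on single libraries. Without scaffold replicate 2, scaffold replicate 3, control replicate 2 or control replicate 3, edgeR called 0 members higher (5 to 7 at an unadjusted p under 0.05), and without control replicate 1 it called 1. It called 1 member lower without scaffold replicate 2, scaffold replicate 3 or control replicate 2, and 2 without control replicate 3. DESeq2 called 5 members higher and 4 lower.

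**Figure D1:**
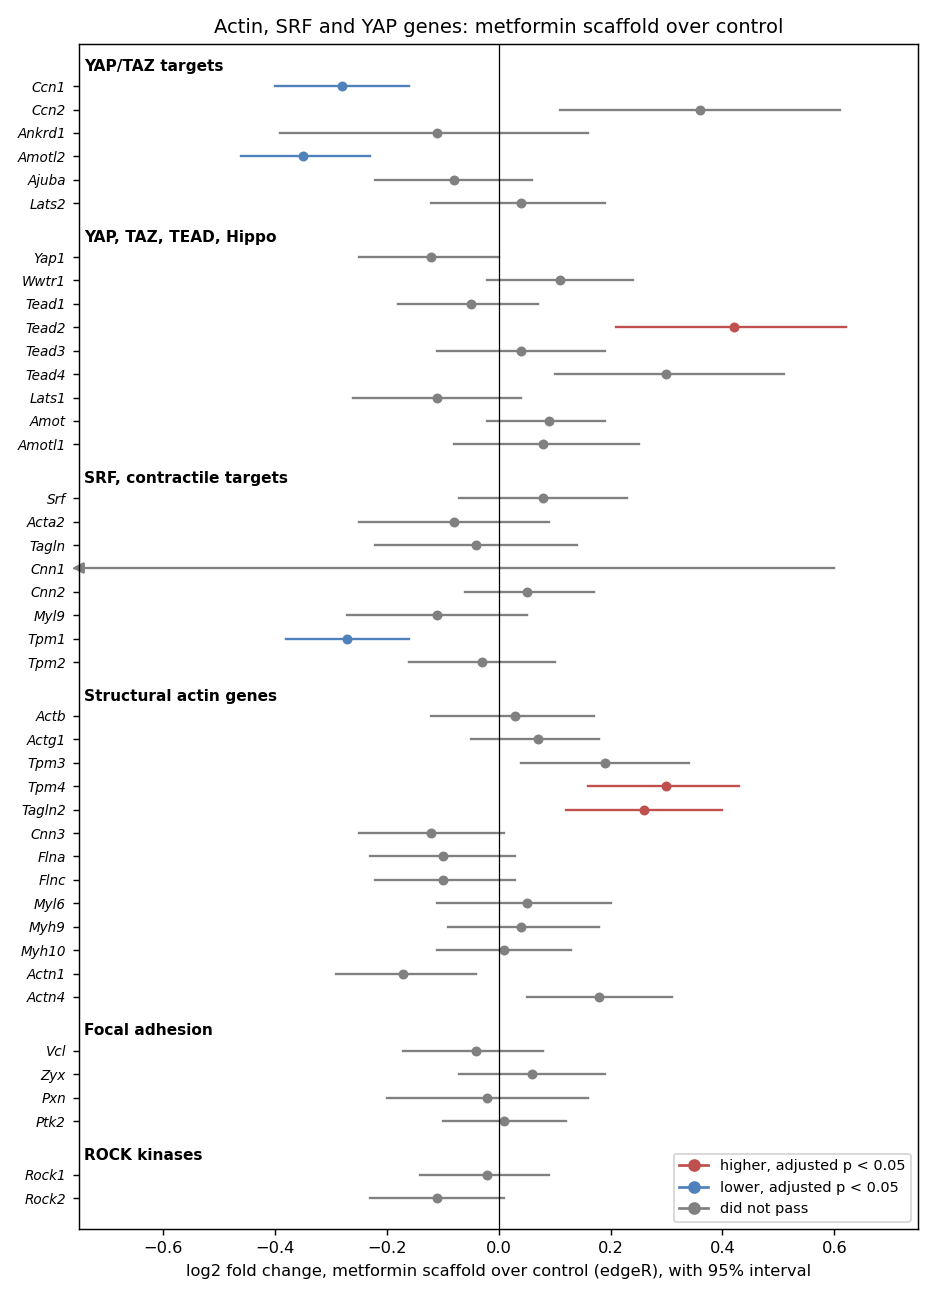
Log2 fold change of 42 of the 44 genes, metformin scaffold over control, by edgeR, with its 95% interval, grouped by role. Ccn1, Amotl2 and Tpm1 lie below 0 and Tead2, Tpm4 and Tagln2 above it with adjusted p under 0.05; Cnn1, at -1.13, is drawn as an arrow at the left edge.

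Of the 6 YAP and TAZ targets 2 fell, Ccn1 and Amotl2, and 4 did not pass. Ccn1 encodes a secreted matrix protein that binds integrins (ENSMUSG00000028195, chromosome 3, 145646976 to 145649981, GRCm38). It stood at 64.1, 68.7 and 66.3 FPKM in scaffold libraries, against 88.1, 81.7 and 78.7 FPKM in control libraries. Every scaffold library was below every control library, and the log2 fold change was -0.28 ± 0.06 (SE; edgeR adjusted p = 0.0168). Its relative Ccn2, connective tissue growth factor, had 2.48, 2.51 and 2.57 FPKM in scaffold libraries, against 2.24, 1.93 and 1.88 FPKM in control libraries. Those groups did not overlap either, in the opposite direction, but Ccn2 did not pass (0.36 ± 0.11, interval 0.11 to 0.61, edgeR adjusted p = 0.11). Ccn1 made up 96.3% ± 0.116 of the summed FPKM of the pair in scaffold libraries and 97.6% ± 0.0952 in control libraries (SD, n = 3 each, and likewise for later values with ± beside an FPKM or a share). Ccn1 lost its call without scaffold replicate 2 (edgeR adjusted p = 0.0553), scaffold replicate 3 (0.0742) or control replicate 2 (0.064).

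Amotl2 encodes an angiomotin-like scaffold protein of cell junctions that binds YAP and favours LATS activity, and it is itself a YAP target (ENSMUSG00000032531, chromosome 9, 102716672 to 102733418). It had 19.8, 21.4 and 20.5 FPKM in scaffold libraries, against 27.3, 27.1 and 26.3 FPKM in control libraries. The groups were well apart, and the gene fell by 0.35 ± 0.05 on the log2 scale. Its edgeR adjusted p of 0.00376 was the smallest of the 44. It passed under all 15 alternatives tried, with adjusted p between 1.03e-08 and 0.0261. Neither other angiomotin passed: Amot stood at 0.09 ± 0.05 (edgeR adjusted p = 0.388) and Amotl1 at 0.08 ± 0.07 (edgeR adjusted p = 0.618). Amotl2 made up 42%, 42.9% and 43.5% of the summed angiomotin FPKM in scaffold libraries, against 49.2%, 51% and 50.4% in control libraries. It remained the highest of the family in both groups, followed by Amot and Amotl1.

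The other 3 YAP targets overlapped between groups. Ankrd1, an ankyrin repeat protein induced by stretch and injury, had 2.01, 2.45 and 2.66 FPKM in scaffold libraries, against 2.55, 2.8 and 2.55 FPKM in control libraries. Its interval was wide, from -0.39 to 0.16. Ajuba, a LIM protein that restrains LATS, stood at -0.08 ± 0.06, and Lats2, the kinase that phosphorylates YAP and TAZ, at 0.04 ± 0.07.

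Among the YAP and TAZ proteins themselves, their DNA-binding partners and the Hippo regulators, 1 of 9 rose. Tead2, one of the 4 TEAD factors (ENSMUSG00000030796, chromosome 7, 45215753 to 45233644), had 3.33, 3.59 and 4.19 FPKM in scaffold libraries, against 2.99, 2.79 and 2.78 FPKM in control libraries. The groups did not overlap, and the rise of 0.42 ± 0.09 on the log2 scale was the largest called of the 44 (edgeR adjusted p = 0.0316). It overlaps Cd37 on the opposite strand, which had a mean count of 4.5. This call held under only 5 of the 14 alternatives that could be fitted: the adjusted p was 0.0785 and 0.0762 with limma, 0.09 with no filter on low counts, 0.055 with the replicate block, and 0.0627 to 0.134 without any 1 library other than scaffold replicate 1. Tead4, at 2.87 ± 0.16 FPKM in scaffold and 2.39 ± 0.115 FPKM in control libraries, did not pass (0.30 ± 0.09, edgeR adjusted p = 0.107). The more abundant factors Tead3 (0.04 ± 0.07) and Tead1 (-0.05 ± 0.06) did not pass either. Tead1 made up 30.7% ± 0.78 of the summed TEAD FPKM in scaffold and 34.2% ± 0.558 in control libraries, and Tead2 18.1% ± 1.55 and 14.6% ± 0.0692. Tead3 and Tead1 overlapped in level, as did Tead2 and Tead4, while Tead1 was above Tead2 in every library.

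Yap1 and Wwtr1, the gene for TAZ, leaned apart without passing. Yap1 had 8.76, 8.44 and 8.35 FPKM in scaffold libraries, against 10.2, 9.12 and 9.22 FPKM in control libraries, with no overlap (-0.12 ± 0.06, edgeR adjusted p = 0.285). Wwtr1, the more abundant of the pair, stood at 22.2 ± 0.67 FPKM in scaffold and 21.1 ± 1.58 FPKM in control libraries (0.11 ± 0.06, edgeR adjusted p = 0.379). The kinase gene Lats1 stood at -0.11 ± 0.07 (edgeR adjusted p = 0.459).

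In the SRF group 1 of 8 genes fell and 7 did not pass. Tpm1, a tropomyosin that stiffens contractile filaments (ENSMUSG00000032366, chromosome 9), had 134, 135 and 133 FPKM in scaffold libraries, against 165, 166 and 169 FPKM in control libraries. The spread within each group was small beside the gap, and the log2 fold change was -0.27 ± 0.05 (edgeR adjusted p = 0.0112). Tpm1 lost its call without scaffold replicate 2 (edgeR adjusted p = 0.0629), scaffold replicate 3 (0.0624), control replicate 2 (0.0615) or control replicate 3 (0.0692). Many Tpm1 isoforms exist, and the table gives the gene as a whole.

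The 2 groups of libraries overlapped for Acta2, Tagln, Srf, Myl9, Tpm2 and Cnn2, and none of these passed. Acta2, smooth muscle α-actin, had 338, 358 and 393 FPKM in scaffold libraries, against 362, 406 and 414 FPKM in control libraries, which places it at rank 80 of 28802 genes by mean FPKM. Its log2 fold change of -0.08 ± 0.08 had an interval of -0.25 to 0.09. Tagln, the actin-binding protein SM22α, had 26.3, 23.9 and 27.7 FPKM in scaffold libraries, against 24.6, 27.7 and 29.8 FPKM in control libraries (interval -0.22 to 0.14). Tagln overlaps Pcsk7 and Gm48529 on the opposite strand, with mean counts of at most 1754.5, beside 3427 to 4538 counts for Tagln. How the counting treated strands is not stated. Srf stood at 14 ± 0.856 FPKM in scaffold and 13.6 ± 0.907 FPKM in control libraries (0.08 ± 0.07, edgeR adjusted p = 0.594). Myl9, a regulatory myosin light chain (-0.11 ± 0.07), Tpm2 (-0.03 ± 0.06) and Cnn2, a calponin of non-muscle cells (0.05 ± 0.05), did not pass.

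Cnn1, the calponin of smooth muscle, was close to the detection limit. It had 25, 20 and 0 estimated counts in scaffold libraries, against 27, 30 and 40 in control libraries. The groups did not overlap, but its log2 fold change of -1.13 ± 0.79 rests on low counts (edgeR adjusted p = 0.501). At the assumed 4 or so counts to a read pair these are a few read pairs. The other 43 genes had between 413 and 100827 counts in every library.

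**Figure D2:**
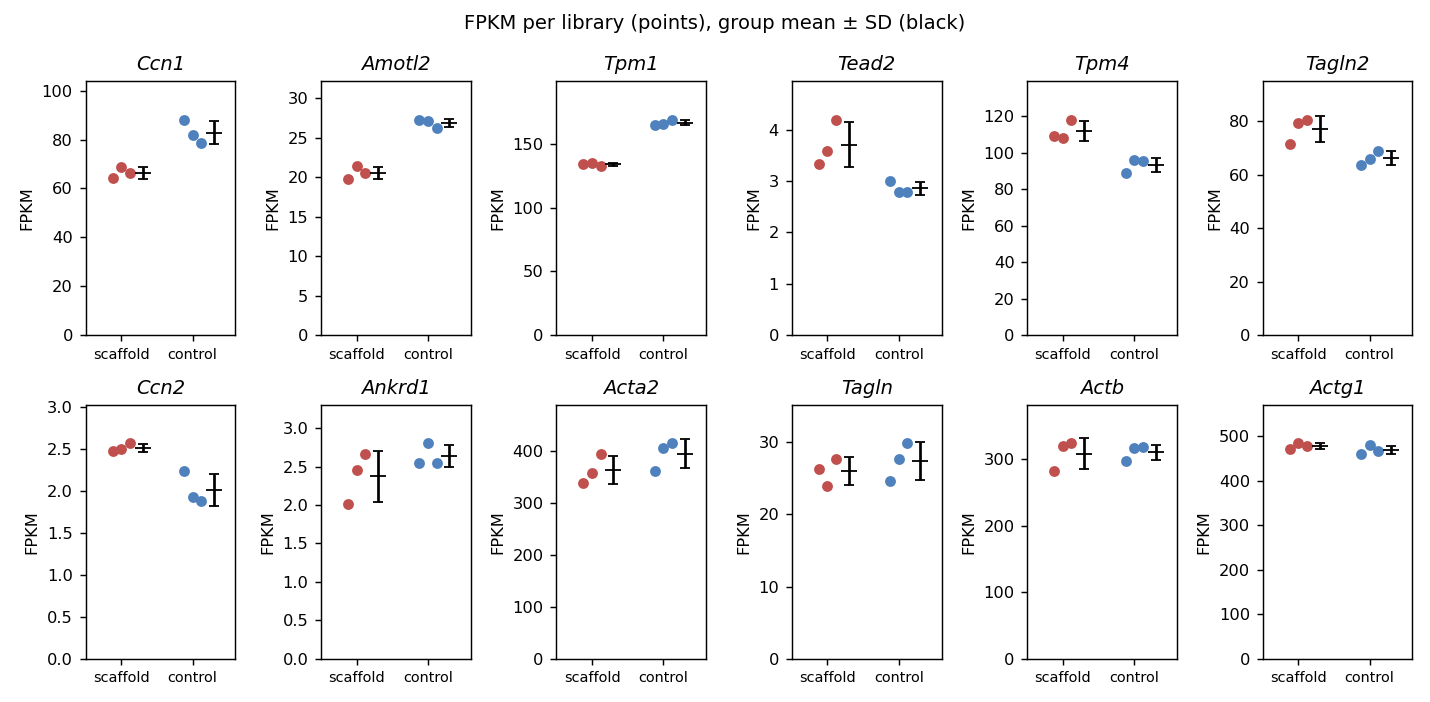
FPKM of 12 genes in each library (points; metformin scaffold in red on the left, control in blue on the right), with the group mean ± SD in black. The top row holds the 6 genes that passed the test, whose groups do not overlap; in the lower row Ccn2 does not overlap either, and Ankrd1, Acta2, Tagln, Actb and Actg1 do.

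Of 13 structural actin genes 2 rose and 11 did not pass. Tpm4, a tropomyosin of non-muscle filaments (ENSMUSG00000031799, chromosome 8), had 109, 108 and 118 FPKM in scaffold libraries, against 89, 95.7 and 95.4 FPKM in control libraries. Its groups were separate (0.30 ± 0.06, edgeR adjusted p = 0.0189). It overlaps 2 noncoding genes on the opposite strand, with mean counts of at most 193.5. The call was lost with no filter on low counts (edgeR adjusted p = 0.0531) and without scaffold replicate 2 (0.0518), scaffold replicate 3 (0.112), control replicate 2 (0.0595) or control replicate 3 (0.057). Tagln2, a transgelin found in many cell types (ENSMUSG00000026547, chromosome 1, 172500047 to 172507380), had 71.5, 79.4 and 80.6 FPKM in scaffold libraries, against 63.8, 66 and 68.9 FPKM in control libraries. It was the weakest of the 6 calls (0.26 ± 0.06, edgeR adjusted p = 0.0418). It held under 6 of 15 alternatives and was lost with library totals alone as the scaling (edgeR adjusted p = 0.061), with limma (0.0979) and with no filter on low counts (0.108). It was also lost without scaffold replicate 2 (0.154), scaffold replicate 3 (0.19), control replicate 1 (0.101), control replicate 2 (0.132) or control replicate 3 (0.0751).

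The cytoplasmic actins Actb and Actg1, often used as reference genes, did not pass. Actb had 282, 320 and 324 FPKM in scaffold libraries, against 298, 317 and 318 FPKM in control libraries (0.03 ± 0.07, interval -0.12 to 0.17). Actg1 had 472, 484 and 479 FPKM in scaffold libraries, against 461, 480 and 468 FPKM in control libraries (0.07 ± 0.05, interval -0.05 to 0.18). Both actins have processed copies in the genome that may share their reads. Actn1 and Actn4, the α-actinins of non-muscle cells, did not overlap between groups and lay on opposite sides of 0 without passing. Actn1 stood at 38.2 ± 1.86 FPKM in scaffold and 44.1 ± 1.87 FPKM in control libraries (-0.17 ± 0.06, edgeR adjusted p = 0.139), and Actn4 at 39.3 ± 2.08 and 35.7 ± 0.9 FPKM (0.18 ± 0.06, edgeR adjusted p = 0.121). DESeq2 called both, and also Tpm3 (0.19 ± 0.07, edgeR adjusted p = 0.152). The filamins Flna (-0.10 ± 0.06) and Flnc (-0.10 ± 0.06), the calponin Cnn3 (-0.12 ± 0.06), the myosin heavy chains Myh9 (0.04 ± 0.06) and Myh10 (0.01 ± 0.05) and the light chain Myl6 (0.05 ± 0.07) did not pass.

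Levels ranged widely within and between the groups of genes. The SRF group had a median of 94.4 FPKM and the structural genes 71.7 FPKM, against 8.9 FPKM for YAP and TAZ targets and 9.02 FPKM for their regulators. Actg1 was the highest of the 44, at rank 64 of the whole table by mean FPKM, followed by Acta2 at 80, Actb at 106 and Cnn3 at 110. These actins kept the order Actg1, Acta2, Actb with no overlap between neighbours over the 6 libraries. Cnn3 was above Cnn2, Tagln2 above Tagln, Flna above Flnc and Myh9 above Myh10 in every library. Actn1 and Actn4 overlapped. Leaving out any 1 library changed the order of means in 0 of 14 families.

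**Figure D3:**
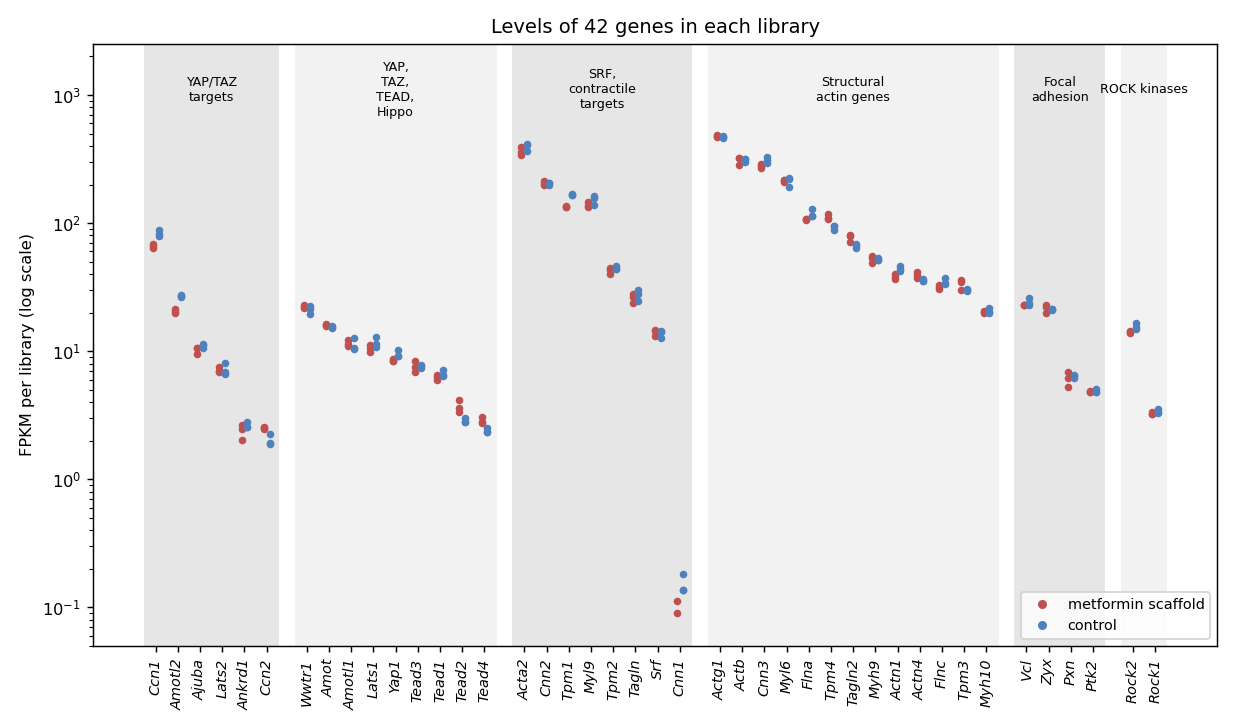
FPKM of 42 of the 44 genes in each library on a log scale (metformin scaffold in red, control in blue), grouped by role and ordered by mean level within a group. The actins Actg1, Acta2 and Actb lie at the top, YAP and TAZ targets lie between 1.88 and 88.1 FPKM, and Cnn1 lies at or below 0.183 FPKM, with the scaffold library at 0 not drawn.

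Shares within a family do not depend on how libraries are scaled. In the tropomyosins the order by level was Tpm1, Tpm4, Tpm2 and Tpm3 in both groups, with no overlap between neighbours. Tpm1 made up 42.9%, 41.8% and 40.5% of the summed tropomyosin FPKM in scaffold libraries, against 50.3%, 49.4% and 49.6% in control libraries. Tpm4 made up 34.8%, 33.4% and 35.8% in scaffold libraries, against 27.1%, 28.6% and 28% in control libraries. The shares of both genes were separate between the groups, while that of Tpm2 overlapped, at 13.2% ± 0.493 in scaffold and 13.3% ± 0.174 in control libraries. Tpm3 took 10.4% ± 0.74 in scaffold and 9.05% ± 0.198 in control libraries, also with no overlap. Summed tropomyosin FPKM was 322 ± 7.85 in scaffold and 335 ± 6.82 in control libraries.

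Shares were also compared in pairs of related genes. Tagln2 made up 73.1%, 76.9% and 74.4% of the summed transgelin FPKM in scaffold libraries, against 72.1%, 70.5% and 69.9% in control libraries. Actn4 made up 50.5%, 49.7% and 52% of the α-actinins in scaffold libraries, against 43.1%, 45.4% and 45.7% in control libraries. The 3 actins overlapped: Acta2 took 31.6% ± 1.15 in scaffold and 33.5% ± 1.11 in control libraries. Over 14 families, 22 of 35 shares did not overlap between the groups, in 9 of the families. The shares of a family are tied to each other, and in a pair both separate together. With 3 libraries against 3, the two-sided exact permutation test gave p = 0.1 for each share that did not overlap, the smallest it can give, so no share could pass 0.05.

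**Figure D4:**
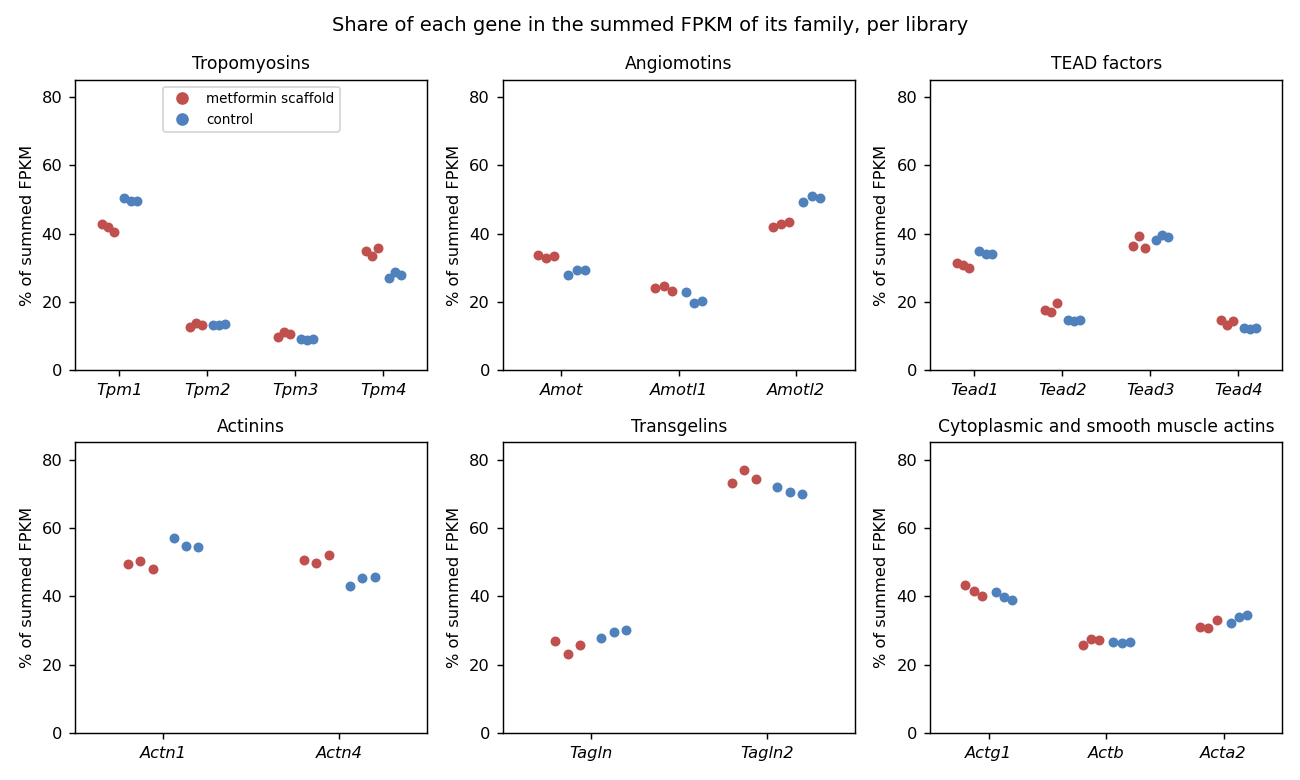
Share of each gene in the summed FPKM of its family, in percent, for each library of 6 families (metformin scaffold in red on the left of each gene, control in blue). Tpm1, Amotl2, Actn1, Tead1 and Tagln take smaller shares in all 3 scaffold libraries. Tpm3, Tpm4, Tagln2, Tead2, Tead4, Amot, Amotl1 and Actn4 take larger ones. Tpm2, Tead3 and the 3 actins overlap.

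Set side by side, the YAP and TAZ targets had a median log2 fold change of -0.09 (range -0.35 to 0.36, 0 higher and 2 lower of 6). The SRF group had -0.06 (-1.13 to 0.08, 0 higher and 1 lower of 8), and the structural actin genes had 0.04 (-0.17 to 0.30, 2 higher and 0 lower of 13). The quartiles of all genes tested were -0.14 and 0.13, and the medians of all 3 groups lay between them. The difference between the groups was not tested. The grouping is by listed role, and the structural genes Actg1 and Myl6 also held a CArG box in a promoter window. These medians moved with single libraries. That of the SRF group was -0.13 when control replicate 1 was left out, -0.12 when scaffold replicate 3 was, and -0.02 when control replicate 3 was. That of the YAP and TAZ targets was -0.05 without scaffold replicate 1. That of the structural genes was 0.08 without scaffold replicate 1 and 0.02 without scaffold replicate 2 or 3. At a mean of at least 5 FPKM the median of the YAP and TAZ targets was -0.20, since 4 of the 6 genes remain there.

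Of the 4 focal adhesion genes edgeR and DESeq2 each called 0, with 0 at an unadjusted p under 0.05, and the median was -0.01. Vcl, vinculin, had 22.8, 22.8 and 22.9 FPKM in scaffold libraries, against 25.9, 23.9 and 22.8 FPKM in control libraries (-0.04 ± 0.06). It overlaps Ap3m1 on the opposite strand, which had a mean count of 8314.7, beside 13483 to 15351 counts for Vcl. Zyx, zyxin, stood at 0.06 ± 0.06, Pxn, paxillin, at -0.02 ± 0.08, and Ptk2, focal adhesion kinase, at 0.01 ± 0.05. Rock1 (-0.02 ± 0.05) and Rock2 (-0.11 ± 0.06), kinase genes whose products raise myosin contraction, did not pass either.

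Other genes of these routes were read from further lists. The background for the count of each list is that 2.85% of all genes tested were called higher and 1.46% lower. Of 16 tested further YAP targets 1 rose and 1 fell, with a median of 0.02. Ccdc80, a secreted matrix protein, stood at 60.3 ± 4.77 FPKM in scaffold and 48.3 ± 1.99 FPKM in control libraries (0.36 ± 0.07, edgeR adjusted p = 0.0122). It lost its call without scaffold replicate 2 (edgeR adjusted p = 0.068) or 3 (0.0742). Rbms3, an RNA-binding protein, was lower (-0.26 ± 0.07, edgeR adjusted p = 0.0481) and held in 4 of the 14 alternatives that could be fitted; it was lost without any single library (adjusted p 0.0629 to 0.201). Of 17 Hippo kinases and adaptors 1 fell: Frmd6, a FERM protein upstream of the Hippo kinases, had 14.4, 14 and 13.6 FPKM in scaffold libraries, against 19.7, 19 and 17.7 FPKM in control libraries. Its groups were far apart (-0.39 ± 0.05, edgeR adjusted p = 0.00276), and it passed under all 15 alternatives, as Amotl2 did. The median of that list was -0.09.

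Of 18 tested SRF cofactors and further contractile targets 1 rose, with a median of -0.02. Actc1, cardiac α-actin, had 138, 113 and 80 estimated counts in scaffold libraries, against 24, 6 and 6 in control libraries, or 0.879 ± 0.186 and 0.0967 ± 0.0951 FPKM (3.16 ± 0.51, edgeR adjusted p = 0.00525). At the assumed 4 or so counts to a read pair, the control values are a few read pairs. The Actc1 call held under all 12 alternatives that could be fitted. Beside it, the skeletal muscle marker Mb stood at 1.15 ± 0.277 FPKM in scaffold and 0.115 ± 0.199 FPKM in control libraries (edgeR adjusted p = 0.0763), and Ckm at 0.211 ± 0.0275 and 0.0808 ± 0.0164 FPKM (edgeR adjusted p = 0.0828). The skeletal α-actin gene Acta1 lay the other way, at 0.179 ± 0.0448 FPKM in scaffold and 0.383 ± 0.171 FPKM in control libraries (edgeR adjusted p = 0.244). None of the 3 overlapped between groups, and they were chosen after their values were seen. Myog did not overlap either and was lower, at 0.0172 ± 0.0149 FPKM in scaffold and 0.0862 ± 0.0487 FPKM in control libraries. Tnnt3, Tnni2, Myod1, Myh1 and Actn3 overlapped between groups. The part of these markers in the Actc1 value was not tested. Of 8 immediate early targets, which SRF controls with a different set of cofactors, 1 rose: Egr1, a zinc finger factor, stood at 8.96 ± 0.496 FPKM in scaffold and 7.05 ± 0.417 FPKM in control libraries. Egr1 rose by 0.39 ± 0.07 (edgeR adjusted p = 0.00775) and passed under all 15 alternatives. The median of that list was 0.33, and 7 of the 8 did not pass. In edgeR 5 of the 8 had an unadjusted p under 0.05, against 3141 of all 17375 genes tested. DESeq2 called 4 of the 8, against 833 higher and 477 lower of 14276 genes. Of 32 actin turnover genes 2 rose, against 2.85% of all genes tested, with a median of 0.02. Msn, moesin, which ties filaments to the membrane, rose by 0.31 ± 0.06 (edgeR adjusted p = 0.0157). Tmsb10, a thymosin that binds free actin, rose by 0.46 ± 0.11 (edgeR adjusted p = 0.0409). Msn was lost without scaffold replicate 2 or 3 or control replicate 2 or 3 (adjusted p 0.0615 to 0.0791), and Tmsb10 held in 7 of 15 alternatives and was lost without scaffold replicate 2 or 3 or control replicate 1 or 3 (adjusted p 0.058 to 0.195).

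Of 21 adhesion adaptors 2 fell, against 1.46% of all genes tested, with a median of -0.02. Tns3, a tensin, stood at 20.5 ± 0.549 FPKM in scaffold and 25.4 ± 1.14 FPKM in control libraries (-0.27 ± 0.05, edgeR adjusted p = 0.0153) and lost its call without scaffold replicate 2 (0.0639), scaffold replicate 3 (0.089) or control replicate 2 (0.0738). Tln2, a talin, was lower (-0.28 ± 0.06, edgeR adjusted p = 0.0309) and held in 5 of the 14 alternatives that could be fitted; it was lost without any single library other than control replicate 3 (adjusted p 0.0578 to 0.122). In the cytokinesis list, 7 of 8 rose, with a median of 0.50, against 2.85% higher among all genes tested. Its proteins act at the actin and myosin ring or at the spindle midzone when cells divide. The list was chosen with earlier results of these data known. Anln, anillin, which binds actin and myosin in the ring, had 7.29, 7.67 and 8.45 FPKM in scaffold libraries, against 5.01, 5.64 and 5.31 FPKM in control libraries. Its groups did not overlap (0.59 ± 0.07, edgeR adjusted p = 0.00142). Prc1, which bundles the spindle midzone, rose by 0.52 ± 0.06 (edgeR adjusted p = 0.00142). Kif23, a midzone kinesin, rose by 0.62 ± 0.09 (edgeR adjusted p = 0.00276) and Racgap1, its partner, by 0.41 ± 0.06 (edgeR adjusted p = 0.00309). Aurkb, a mitotic kinase and another of the 7, held in 5 of 15 alternatives and was lost without any single library other than control replicate 3 (edgeR adjusted p 0.0646 to 0.146). Cit, citron kinase, was lost with limma (adjusted p 0.091 and 0.0958). Members of the cytokinesis list are cell-cycle genes, and their part in the actin results was not tested.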

How the data were processed

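Poly(A) RNA labelled as mouse cranial bone was measured in 6 libraries, 3 per group. Per the submitters' processing notes, bcl2fastq 2.20, fastp, HISAT2, StringTie, DESeq2 and edgeR were used, without roles; the genome build and counting settings are not given in the sources used here. Per the file headers, each library has 2 deposited columns per gene, FPKM and estimated counts. Low deposited counts pile up at 4, 8 and 12 (31.8% to 33.6% of values from 1 to 12), so they are treated as estimates and not as reads. GENCODE M21 (GRCm38) held 99.7% of the gene identifiers, and 90.4% of the matched ones had the same coordinates; coordinates are printed only where they match.

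Estimated counts (already whole) were filtered with filterByExpr (minimum count 10), TMM-normalised and compared by the quasi-likelihood test of edgeR 4.0.16 in R 4.3.3. SEs are the fold change divided by the square root of F, and 95% intervals use the test's degrees of freedom. DESeq2 1.42.0 and limma 3.58.1 on log2(FPKM + 1) were alternatives, with other scalings and filters, counts divided by 4, each library left out, and the replicate number as a block, 15 in all. FPKM is compared between genes because it is per length, and intervals and SEs cover the spread of these libraries only. Of the 44 members 42 are described singly and the others are not reported here; of the further lists the text names up to 4 genes per direction with the smallest p. Members and lists were chosen with earlier results of these data known. Sept9 was matched as Septin9, and Vgll1 and Vgll2 are not analysed here.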

Additional observations from a re-analysis of the deposited data

How the results depend on the processing

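The signs of the 6 called genes were the same under every alternative that could be fitted, and Amotl2 alone of them passed under all 15. Over the 42 genes described singly, 30 values lost a call and 4 gained one, while 11 uncalled genes changed sign with values of at most 0.07 in size. Leaving out a library left between 234 and 610 higher and 89 and 358 lower genes in the whole table, against 496 and 253; the higher count moved most without scaffold replicate 2 (304), scaffold replicate 3 (234) and control replicate 2 (304). Members higher ranged from 0 to 4 and members lower from 1 to 3, against 3 each; further pathway genes lower ranged from 1 to 3, against 4. The medians without a library were -0.12 to -0.05 for YAP and TAZ targets, -0.13 to -0.02 for the SRF group, 0.02 to 0.08 for structural genes, 0.04 to 0.09 for regulators of YAP and TAZ and -0.02 to 0.04 for focal adhesion.

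DESeq2 gave 833 higher and 477 lower genes, 5 members higher and 23 further pathway genes higher, against 12. Limma on log2(FPKM + 1) gave 328 higher genes, 1 member higher, 2 pathway genes lower and a median of 0.04 for regulators of YAP and TAZ (0.08 in the edgeR fit). With a pseudocount of 0.1 the first 3 of these were 326, 1 and 2. Library totals alone gave 380 lower genes; this scaling moved the median of all genes to -0.04. With no filter, edgeR gave 317 genes higher and 115 lower, 0 members higher (8 at an unadjusted p under 0.05) and 2 pathway genes lower; more genes were tested there (28802). At a mean of at least 5 FPKM, 311 genes were higher, and the medians were -0.20 for YAP and TAZ targets and 0.02 for their regulators, over fewer genes; Tead2, Ccn2, Ankrd1, Tead4, Rock1, Ptk2 and Cnn1 gave no value. Otherwise the cause was not tested.

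The labels number the replicates without saying whether they are paired. Deviations from the group means correlated at -0.061, -0.014 and 0.004 for same-numbered libraries across 11834 genes. For libraries of different numbers the values lay between -0.108 and 0.109. No pairing was seen, but this check could miss a weak one. With the replicate block, 460 genes were higher and 191 lower, 2 members rose and 3 fell, and 2 pathway genes fell. Higher genes were 66.2% of calls in the edgeR fit, 53% with library totals and 55.9% with limma. Depth limits Cnn1 and Actc1, which rest on low counts.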

Other observations

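Shares within further pairs and families of related genes are given here as values only. Wwtr1 made up 71.2%, 72.3% and 73.3% of the summed FPKM of Yap1 and Wwtr1 in scaffold libraries, against 68.8%, 68.1% and 69.7% in control libraries. Cnn2 made up 42.6%, 43.1% and 41.9% of the calponins in scaffold libraries, against 40.4%, 38.7% and 40% in control libraries. The filamins differed less: Flna took 77.2% ± 0.737 of the filamin FPKM in scaffold libraries and 77.2% ± 0.324 in control libraries. LATS shares overlapped as well, with Lats1 at 59.4% ± 1.88 in scaffold and 61.8% ± 0.965 in control libraries.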
